A study of Mus musculus with 6 samples.

Results

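The extracellular matrix of the developing heart holds many proteins besides the collagens. The expression of 42 genes for such proteins, and for the enzymes that crosslink, cut or protect the matrix, was followed in embryonic mouse cardiomyocytes after knockdown of DNMT1. The genes were chosen by name, with earlier results of these data known, so their shares of calls are descriptive. All 42 were found among the 43629 genes of the count files. By role they comprise 7 structural glycoproteins, 8 elastic fibre proteins, 5 lysyl oxidases, 5 proteoglycans, 5 matricellular proteins, 5 matrix metalloproteinases (MMPs), 4 tissue inhibitors of metalloproteinases (TIMPs) and 3 proteases of the ADAMTS family.

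Structural glycoproteins such as fibronectin form the scaffold to which cells attach. Elastic fibres are built from elastin on a framework of fibrillins and fibulins, and the lysyl oxidases crosslink elastin and collagen. Small leucine-rich proteoglycans bind collagen fibrils and growth factors, matricellular proteins modulate how cells respond to the matrix, and MMPs and ADAMTS proteases cut it, while TIMPs block these proteases. In the heart most of these genes are known as products of fibroblasts, of cells derived from the epicardium and of smooth muscle cells, more than of cardiomyocytes. DNMT1 is the methyltransferase that copies DNA methylation onto the new strand after replication.

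Ventricles of CD-1 embryos at E13.5 were pooled by litter, and cells that did not attach to uncoated flasks were cultured as cardiomyocytes. All 6 cultures were transfected with 12 nM siRNA and collected after 72 h, 3 with a non-targeting negative siRNA and 3 with a pool of 4 siRNAs against DNMT1. Before RNA isolation, cells were sorted with a VCAM1 antibody and magnetic beads, and poly(A) RNA was sequenced. The labels do not say whether cultures of a group came from separate litters, so p-values measure the spread between these cultures, which may be technical. A treatment tag on the 3 DNMT1 siRNA samples names DNMT3a, while their titles name DNMT1. Normalized counts of Dnmt1 were 3446, 2760 and 2878 with negative siRNA and 772, 786 and 666 with DNMT1 siRNA, which is 24.5% of the negative mean (log2 fold change -2.03 ± 0.11 SE, edgeR FDR 0.000192). Dnmt3a did not fall (log2 fold change 0.24 ± 0.08 SE, edgeR FDR 0.0919).

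A normalized count is a read count scaled to a common effective library size. The edgeR FDR is the p-value of edgeR's quasi-likelihood test adjusted over 15470 tested genes, and a gene was called up-regulated or down-regulated when its FDR was below 0.05 and its fold change above 1.5. Errors of log2 fold changes are standard errors (SE), those of means are SD, and n was 3 per group. Reads on genes numbered 27852412 to 35896018 per negative siRNA library and 13739561 to 16186310 per DNMT1 siRNA library. Uniquely mapped reads outside annotated genes made up 17.0% ± 1.64 of the reads on genes and outside genes with negative siRNA and 31.2% ± 4.55 with DNMT1 siRNA, with no overlap between groups (exact permutation test, two-sided, p = 0.1, the smallest p that 3 against 3 allows). The negative siRNA replicate 2 stood apart from the other 2 negative cultures on the second principal component, which held 21.5% of the variance.

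Marker genes of several heart cell types were present. For comparison, 4.26% of all tested genes were up-regulated and 2.23% down-regulated. Cardiomyocyte markers took 0.200% to 0.249% of gene reads with negative siRNA and 0.409% to 0.511% with DNMT1 siRNA. Of the 10 markers, 7 were up-regulated, among them Actn2 and Myh6. Myl7, Myh7 and Tnni1 were not called, with log2 fold changes of 0.42, 0.20 and -0.18. Fibroblast markers took 3.72% to 5.56% and then 2.71% to 2.93%. Collagens made up most of this share: in negative replicate 1, Col1a1, Col1a2 and Col3a1 had 733849, 311622 and 250784 raw reads, and Gsn, the next marker, 10518. Of the 10 markers, 4 were down-regulated (Col1a1, Col1a2, Dpt and Dpep1), while Pdgfra, Tcf21, Col3a1, Mfap4 and Gsn were not called. Thy1 was higher (log2 fold change 0.36, edgeR FDR 0.0137) and Gsn lower (-0.37, edgeR FDR 0.0495) in every treated culture, both under the fold limit. With a replicate block the edgeR FDRs of Thy1 and Gsn were 0.0370 and 0.0717. All treated cultures lay below all controls in 7 of the 10 markers and above them in 1, beside 17.7% and 18.3% of all tested genes. Without negative replicate 2, Col1a1 and Col1a2 were under the fold limit, at -0.42 and -0.44, and Dpt went from -1.50 to -0.87. With a replicate block the edgeR FDRs of these 3 genes were 0.0605, 0.0683 and 0.0539. With negative siRNA, Col1a1 stood at 3542 RPKM (reads per length in kilobases, scaled to library size) and Tnnt2, a defining gene of cardiomyocytes, at 100.2 RPKM. Myh6 and Myl7 stood at 110.8 and 181.3 RPKM. RPKM depends on the annotated exon length, 7752 bases for Tnnt2, so the ratio of these levels is approximate. The sorted cells thus also held RNA typical of fibroblasts. The paper cites earlier flow cytometry in which nearly all sorted cells were cardiomyocytes. Smooth muscle and pericyte markers took 0.545% to 0.806% and then 0.446% to 0.475%, with 1 of 7 tested down-regulated (Pdgfrb). Most of this share came from Acta2 and Tagln, with 124321 and 77921 raw reads in negative replicate 1, where Pdgfrb, the next, had 10064. Acta2 was lower (log2 fold change -0.51, edgeR FDR 0.0457), under the fold limit. Of the 7 log2 fold changes, 5 were negative and 2 positive: Rgs5 at 1.10 (edgeR FDR 0.111), higher in every treated culture, and Cspg4 at 0.042. Epicardial markers took 0.166% to 0.191% and then 0.179% to 0.185%, with 1 of 8 down-regulated (Krt19). Endothelial markers took 0.00740% to 0.0102% and then 0.0190% to 0.0205%, with 3 of 7 tested up-regulated (Kdr, Emcn and Npr3) and Cldn5 near 0. This rise leaned on Npr3, with 743, 263 and 495 raw reads in the controls and 1575, 1544 and 1426 in the treated cultures. The next marker in the treated cultures, Cdh5, had 370, 801 and 336 and then 487, 433 and 328. A share without Npr3 was not computed. Pecam1, Cdh5 and Tie1 were not called, but their log2 fold changes were 1.46, 1.35 and 1.66 without negative replicate 2. Tek was lower (log2 fold change -0.35, edgeR FDR 0.0373), under the fold limit. Macrophage markers stayed at or below 0.00334%, and edgeR called 0 of 8, with 4 lower at an unadjusted p below 0.05 and 4 down-regulated by DESeq2. In these bulk samples fewer cells of a type and less RNA per cell cannot be told apart, and the part of these marker changes in the results that follow was not tested.

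Of the 42 genes, 40 had enough reads to be tested. With DNMT1 siRNA, 8 were down-regulated (Crispld2, Fbln1, Fndc1, Timp1, Tnxb, Vcan, Mmp11 and Dcn) and 1 was up-regulated (Fmod). This was 22.5% of those tested, against 6.49% of all tested genes. In the lower direction the shares were 20% and 2.23%, and in the higher direction 2.5% and 4.26%. A further 6 genes had an FDR below 0.05 with a fold change under 1.5, namely Nid1, Sparc, Mmp14, Timp3 and Adamts2 at a lower and Timp2 at a higher level. By FDR alone, 13 were thus lower and 2 higher, where 5.65% and 6.81% of all tested genes were lower and higher. The remaining 25 tested genes had an FDR of 0.05 or above. The median log2 fold change of the 40 genes was -0.22, with 25 negative and 15 positive values, beside -0.0049 for all tested genes. All 3 DNMT1 siRNA cultures lay below all 3 controls in 17 of the 40 genes and above them in 6, while among all tested genes 17.7% and 18.3% were separated in this way.

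**Figure D1:**
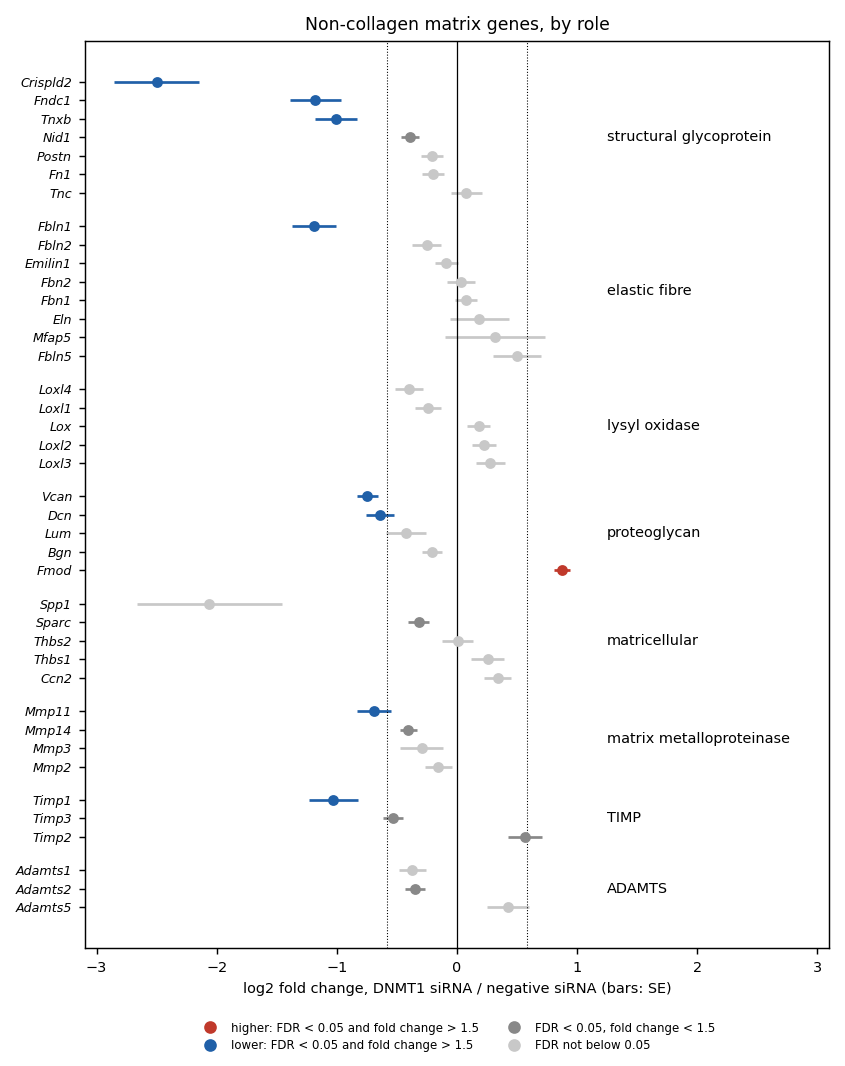
Log2 fold change (DNMT1 siRNA over negative siRNA) of the 40 tested matrix genes, grouped by role, with SE bars; dotted lines mark a 1.5-fold change. Crispld2 lies farthest left at -2.50, and Fmod at 0.87 is the only gene called to the right.

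The sequence before the transcription start was read for genes at both ends of this range, because DNMT1 acts on cytosines of CpG pairs. RefSeq windows of 250 bases before the start (GRCm38.p6) matched 27 of the 42 genes with 32 windows. The 5 shown belong to the 3 genes with the lowest called fold changes, to Timp1 and to Fmod, and CpG pairs are in capitals. DNA methylation is not analysed here.

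Crispld2 (chr8:119992188-119992437, plus strand): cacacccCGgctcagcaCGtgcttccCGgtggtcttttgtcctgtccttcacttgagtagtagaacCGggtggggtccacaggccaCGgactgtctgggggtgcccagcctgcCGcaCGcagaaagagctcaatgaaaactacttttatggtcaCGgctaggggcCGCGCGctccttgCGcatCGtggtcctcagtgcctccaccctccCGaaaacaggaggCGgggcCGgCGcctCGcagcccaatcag

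Fbln1 (chr15:85205699-85205948, plus strand): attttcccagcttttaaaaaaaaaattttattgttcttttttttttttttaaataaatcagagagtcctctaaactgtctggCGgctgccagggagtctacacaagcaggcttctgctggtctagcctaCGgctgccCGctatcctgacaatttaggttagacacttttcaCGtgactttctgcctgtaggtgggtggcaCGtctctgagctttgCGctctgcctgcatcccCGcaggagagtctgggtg

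Fndc1 (chr17:7827303-7827552, minus strand): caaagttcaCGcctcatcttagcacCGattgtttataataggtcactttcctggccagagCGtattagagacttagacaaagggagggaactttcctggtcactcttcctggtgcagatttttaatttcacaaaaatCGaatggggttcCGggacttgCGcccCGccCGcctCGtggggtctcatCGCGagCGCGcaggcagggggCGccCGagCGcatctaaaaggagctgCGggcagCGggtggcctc

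Timp1 (chrX:20869916-20870165, plus strand): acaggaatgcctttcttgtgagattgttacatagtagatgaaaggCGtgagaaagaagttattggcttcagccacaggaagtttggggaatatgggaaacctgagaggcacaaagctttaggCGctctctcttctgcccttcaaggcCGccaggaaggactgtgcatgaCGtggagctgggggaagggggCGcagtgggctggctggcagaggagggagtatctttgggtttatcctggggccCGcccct

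Fmod (chr1:134037004-134037253, plus strand): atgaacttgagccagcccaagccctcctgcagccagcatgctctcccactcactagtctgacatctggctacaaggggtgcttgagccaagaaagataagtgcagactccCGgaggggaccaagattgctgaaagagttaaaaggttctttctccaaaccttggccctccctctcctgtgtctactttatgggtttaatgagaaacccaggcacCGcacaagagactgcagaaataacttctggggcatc

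The windows of Crispld2 and Fndc1 each hold 18 CpG pairs, those of Fbln1 and Timp1 hold 7 and 6, and that of Fmod holds 2. The down-regulated genes thus included windows both rich and poor in CpG. A second Fbln1 start, 59 bases downstream, has 14 CpG pairs in its window, and the windows of Mmp11, Vcan and Tnxb have 14, 10 and 4. Over the 32 windows the median was 8, compared with 15 in the windows of tested genes and 6 in all 32851 windows. The letters TATAAA, searched on both strands, occurred in 25% of the 32 windows, in 6.64% of the windows of tested genes and in 12.4% of all windows. They lay 7 bases before the start in Mmp3, 26 in Postn, 32 in Adamts1, 126 in Thbs2, 211 in Spp1 and 219 in Fndc1. The 2 overlapping Tnc windows held the same site, 126 and 205 bases before their starts. Whether any of these sites acts in transcription was not tested. TGANTCA, the core letters of AP-1 sites, occurred in 6.25%, 4.61% and 6.75%. Of the down-regulated genes, the Fndc1 window held TATAAA, 219 bases before the start, and the Tnxb window held TGANTCA.

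Among the structural glycoproteins, 3 of 7 were down-regulated, none was up-regulated, and 5 of 7 had all DNMT1 siRNA cultures below all negative siRNA cultures, where 2.23% of all tested genes were down-regulated and 17.7% were separated in that direction. Crispld2, a secreted protein with LCCL domains, is a gene of chromosome 8 (119992438 to 120052793, GRCm38, plus strand). Its normalized counts were 1768, 4512 and 1950 with negative siRNA and 516, 401 and 536 with DNMT1 siRNA. All treated cultures were therefore low and close together, while negative replicate 2 was far above the other controls. The fitted decrease was 5.66-fold (log2 fold change -2.50 ± 0.35 SE, edgeR FDR 0.00458). Without negative replicate 2 the log2 fold change was -1.94 (edgeR FDR 6.92e-05), and the gene was down-regulated whichever culture was left out.

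Fndc1, a protein with fibronectin type III domains, lies on chromosome 17 (7738569 to 7827302, minus strand). Counts of Fndc1 were 1705, 2770 and 3236 and then 1120, 1038 and 1248. The control cultures spread widely, and the lowest of them was still above every treated culture. Its log2 fold change was -1.18 ± 0.21 (SE, edgeR FDR 0.0113). Tnxb, tenascin-X, is also on chromosome 17 (34670535 to 34719815, plus strand) and was expressed at a low level. Counts of Tnxb were 321, 230 and 296 and then 146, 115 and 160 (log2 fold change -1.01 ± 0.18 SE, edgeR FDR 0.0106). Both groups were separate, but the fold rests on few reads. The neighbouring pseudogene Tnxa is a near copy of Tnxb, so the division of reads between them is uncertain, although Tnxa itself was given only 0 to 6 reads per culture. Both calls were lost when a treated culture was left out: without DNMT1 replicate 1 the edgeR FDR was 0.0534 for Fndc1 and 0.0506 for Tnxb, and without DNMT1 replicate 2 it was 0.0710 and 0.0598.

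Nid1, nidogen-1, which links laminin and collagen IV in basement membranes, had counts of 21004, 21529 and 20720 and then 15393, 15487 and 17339. The controls nearly coincided, and the decrease was 1.31-fold (log2 fold change -0.39 ± 0.07 SE, edgeR FDR 0.0149), below the fold limit. Its FDR rose to 0.0799 without DNMT1 replicate 1 and to 0.0988 without DNMT1 replicate 2. Fn1, fibronectin, was the gene of the set with the most reads. Counts of Fn1 were 455573, 430634 and 488146 and then 384165, 394447 and 416486, with no overlap. The log2 fold change of -0.20 ± 0.09 (SE) had an edgeR FDR of 0.183, and without negative replicate 2 the FDR was 0.0231. Postn (periostin) and Tnc (tenascin-C), 2 genes well known from valve and fibroblast matrix, were not called: their groups overlapped, with log2 fold changes of -0.21 ± 0.09 and 0.079 ± 0.13 (SE).

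**Figure D2:**
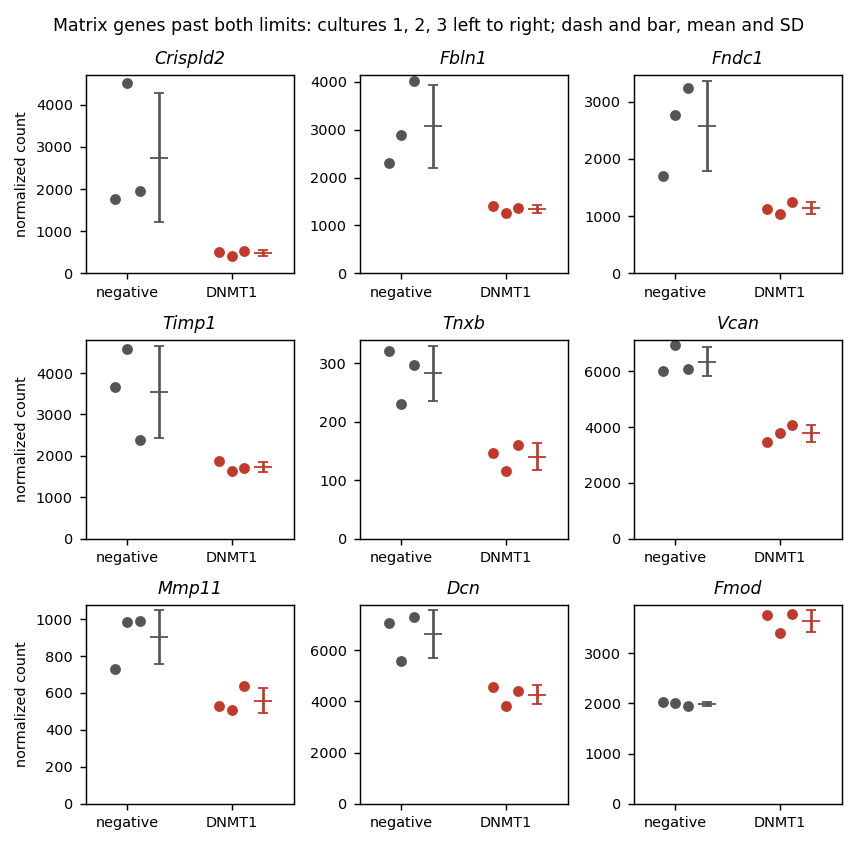
Normalized counts (vertical axes, from 0) of the 9 matrix genes past both limits in the 3 negative siRNA and 3 DNMT1 siRNA cultures, with mean and SD beside the points. In each of the 9 panels the groups do not overlap, and the treated points lie above the controls only for Fmod.

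Of the 8 elastic fibre genes, Fbln1 alone was called, a share of 12.5% beside 6.49% of all tested genes. Fibulin-1, its product, binds fibronectin and elastic fibres, and the gene lies on chromosome 15 (85205949 to 85286535, plus strand). Counts of Fbln1 were 2305, 2890 and 4013 with negative siRNA and 1404, 1261 and 1366 with DNMT1 siRNA. The treated cultures agreed closely, whereas the controls differed widely. The log2 fold change was -1.19 ± 0.18 (SE, edgeR FDR 0.00603), between -1.36 and -0.95 when each culture was left out, and always past both limits.

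Fbln5 (fibulin-5), which carries tropoelastin onto microfibrils, had counts of 17016, 9257 and 16088 and then 19552, 20174 and 20074. Every treated culture was above every control, but negative replicate 2 was far below the others, and the log2 fold change of 0.50 ± 0.20 (SE) had an edgeR FDR of 0.139. Without negative replicate 2 the value was 0.27 with an edgeR FDR of 0.0149. Eln, elastin, varied more between the controls than the other elastic fibre genes, with counts of 39734, 29057 and 64440 against 54698, 50903 and 45897. The treated cultures fell within the range of the controls, and the log2 fold change of 0.19 ± 0.25 (SE) became -0.045 without negative replicate 2 and 0.55 (edgeR FDR 0.0482) without negative replicate 3.

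Fbn1 and Fbn2, the fibrillins of the microfibril, and Emilin1 and Fbln2 overlapped between groups, with log2 fold changes from -0.25 to 0.074 and edgeR FDRs from 0.209 to 0.876. Fbln2 was at -0.38 with an edgeR FDR of 0.00294 when negative replicate 2 was left out. Mfap5, a microfibril glycoprotein, had at most 58.3 normalized counts in a culture and a log2 fold change of 0.32 ± 0.41 (SE). About 20.1% of the Fbn1 exon bases overlap a gene on the opposite strand, Gm9913, which had 153 reads over all cultures. Whether counting used strand is not given in the sources used here.

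None of the 5 lysyl oxidases was called by edgeR or DESeq2. At an unadjusted p below 0.05, edgeR had Loxl3 higher and Loxl4 lower. Lox, the founding member, had 45925 to 56447 normalized counts with negative siRNA and 55187 to 61125 with DNMT1 siRNA, so the groups overlapped (log2 fold change 0.18 ± 0.09 SE, edgeR FDR 0.246). Loxl2 and Loxl3 were higher in each treated culture than in any control, by 0.22 ± 0.10 and 0.28 ± 0.12 on the log2 scale, with edgeR FDRs of 0.192 and 0.169. Without negative replicate 2 the FDR was 0.0391 for Lox and 0.0188 for Loxl3, whose log2 fold change was then 0.41. Part of Loxl3, 11.6% of its exon bases, overlaps Htra2 on the opposite strand, to which 3709 reads were assigned. Loxl4 was lower in each treated culture, with counts of 526, 465 and 520 after 576, 649 and 769 in the controls (log2 fold change -0.40 ± 0.12 SE, edgeR FDR 0.0635, and 0.0257 without negative replicate 1). Loxl1 overlapped between groups (-0.24 ± 0.11). The direction thus differed among the family, with 3 positive and 2 negative values, none past the limits.

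Among the 5 proteoglycans, 2 were down-regulated and 1 was up-regulated, beside 2.23% and 4.26% of all tested genes. Vcan, versican, is a large chondroitin sulfate proteoglycan of the early cardiac jelly, encoded on chromosome 13 (89655312 to 89742509, minus strand). Counts of Vcan were 6019, 6958 and 6069 with negative siRNA and 3480, 3780 and 4082 with DNMT1 siRNA. The highest treated culture was well below the lowest control, and the mean was 59.5% of the negative mean (log2 fold change -0.75 ± 0.09 SE, edgeR FDR 0.00239). Its value lay between -0.82 and -0.68 when each culture was left out, and the call held in all 6 fits.

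Fmod, fibromodulin, a small leucine-rich proteoglycan that binds collagen fibrils, was the only gene of the set called higher. It lies on chromosome 1 (134037254 to 134048277, plus strand). Counts of Fmod were 2022, 1999 and 1950 and then 3765, 3393 and 3780. The controls nearly coincided, and each treated culture was far above them. The increase was 1.83-fold (log2 fold change 0.87 ± 0.07 SE, edgeR FDR 0.000615), and stayed between 0.83 and 0.92 on the log2 scale when each culture was left out.

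Dcn, decorin, a relative of fibromodulin, moved the other way. The gene is on chromosome 10 (97479609 to 97518143, plus strand), and its counts were 7085, 5577 and 7288 and then 4547, 3839 and 4406. The groups did not overlap, and the decrease was 1.56-fold, just past the fold limit (log2 fold change -0.64 ± 0.11 SE, edgeR FDR 0.0115). The call was lost without negative replicate 3 (log2 fold change -0.57), and without DNMT1 replicate 2 or 3 (edgeR FDR 0.0704 and 0.0550). Lum (lumican) lies next to Dcn on chromosome 10. Counts of Lum were 1452, 1551 and 952 and then 1006, 921 and 1027, so that negative replicate 3 lay among the treated cultures. Its log2 fold change was -0.42 ± 0.17 (SE, edgeR FDR 0.138), and without negative replicate 3 it was -0.61 with an FDR of 0.00753. Bgn (biglycan) was lower in each treated culture, with a log2 fold change of -0.21 ± 0.08 and an edgeR FDR of 0.145.

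The share of Fmod among the small proteoglycans of the set was higher in each treated culture. Per length, Bgn made up 88.6% ± 1.16 of the summed RPKM of Bgn, Dcn, Lum and Fmod in the controls and 87.3% ± 0.475 in the treated cultures. The share of Fmod was 3.23%, 2.97% and 2.84% and then 6.47%, 6.13% and 6.19%, while that of Dcn was 6.40%, 4.69% and 6.01% and then 4.42%, 3.93% and 4.09%. Lum gave 3.13%, 3.11% and 1.87% and then 2.33%, 2.25% and 2.27%, so that in the controls its range overlapped that of Fmod. Fmod was below Dcn in every control and above it in every treated culture.

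No matricellular gene passed both limits with edgeR's quasi-likelihood test. At an unadjusted p below 0.05, Ccn2 was higher and Sparc and Spp1 were lower. DESeq2, edgeR's exact test, and the quasi-likelihood test without a filter or without negative replicate 1 called Spp1 down-regulated. Counts of Sparc, a collagen-binding glycoprotein, were 141266, 160019 and 141877 and then 120756, 113672 and 120776. The groups were separate, and the 1.25-fold decrease had an edgeR FDR of 0.0463 (log2 fold change -0.32 ± 0.09 SE), which rose to between 0.140 and 0.198 when any of the treated cultures was left out and to 0.0584 with upper quartile normalization.

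Spp1, osteopontin, a cytokine-like glycoprotein that macrophages and fibroblasts can make, had counts of 107, 575 and 239 with negative siRNA and 48.3, 61.2 and 113 with DNMT1 siRNA. Negative replicate 2 was the highest, and negative replicate 1 lay below the highest treated culture. The log2 fold change of -2.06 ± 0.60 (SE) had an edgeR FDR of 0.0602. Without negative replicate 2 it was -1.23 (FDR 0.0641), without negative replicate 1 it was -2.48 (FDR 0.0126), and DESeq2 gave an adjusted p of 0.0471. Macrophage markers also differed between cultures, at 0.00118%, 0.00334% and 0.00318% of gene reads in the controls and 0.000982%, 0.00147% and 0.00161% in the treated cultures. Their part in the Spp1 value was not tested.

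Ccn2, also known as CTGF, is a target of YAP signalling. Counts of Ccn2 were 15434, 20700 and 19792 and then 23248, 23876 and 23520. Every treated culture was above every control (log2 fold change 0.34 ± 0.11 SE, edgeR FDR 0.0828), and without negative replicate 2 the FDR was 0.0187. An annotated transcript on the opposite strand, Gm15270, covers 23.2% of the Ccn2 exon bases and had 110 reads in all. Thbs1 and Thbs2, the thrombospondins, overlapped between groups. Their log2 fold changes were 0.25 ± 0.14 and 0.0059 ± 0.13 (SE), and the 3 treated cultures of Thbs1 lay between 158875 and 160857 normalized counts while the controls ran from 106171 to 161060. Thbs1 was at 0.41 with an edgeR FDR of 0.0166 when negative replicate 2 was left out.

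**Figure D3:**
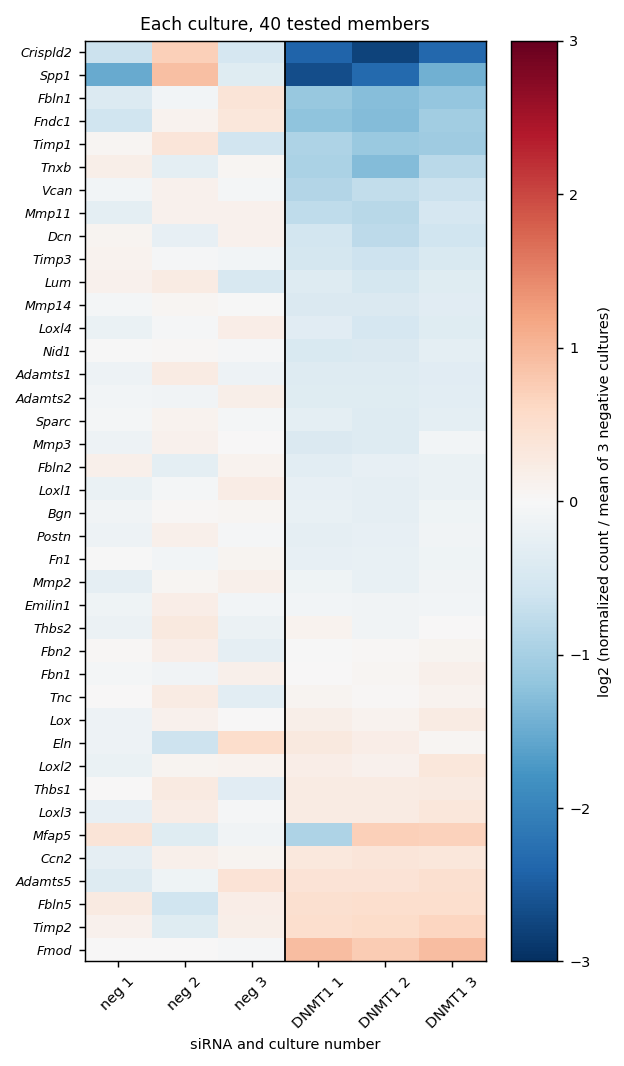
Log2 of the normalized count over the mean of the 3 negative siRNA cultures, for the 40 tested genes (rows, ordered by fold change) in 6 cultures (columns). The 3 treated columns look alike, while the control columns differ among themselves, most of all negative replicate 2 for Crispld2 and Spp1.

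Of the 5 MMPs, 4 were tested. Mmp11 was down-regulated, a share of 25% beside 2.23% of all tested genes, and Mmp14 fell by less than the fold limit. Mmp11, stromelysin-3, an MMP that is activated inside the cell, is on chromosome 10 (75923222 to 75936496, minus strand). Counts of Mmp11 were 732, 984 and 989 and then 531, 509 and 636. All treated cultures were below the lowest control (log2 fold change -0.69 ± 0.14 SE, edgeR FDR 0.0184). The FDR was 0.0766 without DNMT1 replicate 1 and 0.102 without DNMT1 replicate 2. Chchd10 overlaps 5.58% of the Mmp11 exon bases on the opposite strand and had 4722 reads.

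Mmp14, the membrane-bound protease MT1-MMP, activates pro-MMP2 at the cell surface. Counts of Mmp14 were 15060, 16493 and 15640 and then 11635, 11558 and 12404 (log2 fold change -0.41 ± 0.07 SE, edgeR FDR 0.0100). The groups were well apart, although the FDR was 0.0609 without DNMT1 replicate 1 and 0.0765 without DNMT1 replicate 2. Mmp2, gelatinase A, did not differ beyond its spread, with 21589 to 29074 normalized counts in the controls and 22085 to 24169 in the treated cultures (log2 fold change -0.16 ± 0.11 SE, edgeR FDR 0.395). Mmp3 was at or below 98.6 counts with overlapping groups (-0.29 ± 0.18). Mmp9, gelatinase B, was not tested: it had 3, 28 and 6 raw reads in the controls and 1, 1 and 3 in the treated cultures, most of them in negative replicate 2.

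Of the 3 tested TIMPs, Timp1 was down-regulated, and Timp3 at a lower and Timp2 at a higher level had an FDR below 0.05 with a fold change under 1.5. Among all tested genes 2.23% were down-regulated, and by FDR alone 5.65% were lower and 6.81% higher. Timp1, an inducible inhibitor encoded on the X chromosome (20870166 to 20874735, plus strand), had the largest change of the 3. Counts of Timp1 were 3670, 4585 and 2373 and then 1872, 1640 and 1699. The controls spread widely, yet all were above the treated cultures (log2 fold change -1.03 ± 0.21 SE, edgeR FDR 0.0176). Leaving out any of the treated cultures ended the call, with edgeR FDRs of 0.0605, 0.0972 and 0.0804, while it held without each control.

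Timp3, which unlike the other TIMPs binds the matrix itself, had counts of 44192, 40425 and 39266 and then 28507, 26992 and 30170. The groups were far apart, and the 1.45-fold decrease was just under the fold limit (log2 fold change -0.53 ± 0.08 SE, edgeR FDR 0.00633). Without DNMT1 replicate 3 it was -0.59 and past both limits, and without DNMT1 replicate 2 the FDR was 0.0537. The gene lies within Syn3 on the opposite strand, whose exons cover 21.3% of the Timp3 exon bases but which had 258 reads.

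Timp2, the inhibitor that takes part in the activation of pro-MMP2 by MT1-MMP, was higher. Counts of Timp2 were 46147, 32682 and 47923 and then 59508, 62369 and 65634. Each treated culture was above each control, with negative replicate 2 the lowest. The 1.48-fold increase was just under the fold limit (log2 fold change 0.56 ± 0.14 SE, edgeR FDR 0.0364). It passed the fold limit with upper quartile normalization (0.59), and without negative replicate 1 or 3 (0.63 and 0.67), and it was 0.41 without negative replicate 2. Without any of the treated cultures the FDR lay between 0.114 and 0.149. Timp4 had at most 3 raw reads in a culture and was not tested.

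**Figure D4:**
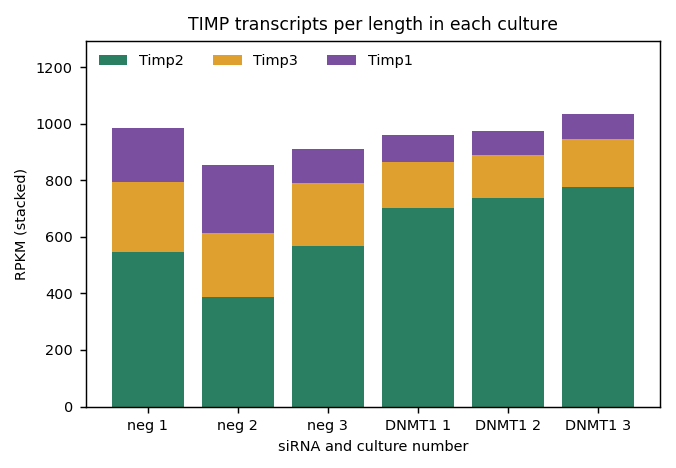
Level per length (RPKM) of Timp2, Timp3 and Timp1, stacked, in each culture. The stacks are of similar height in all 6 cultures, and the Timp2 part is larger and the Timp3 and Timp1 parts are smaller in the 3 DNMT1 siRNA cultures.

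The summed level of the 4 TIMPs was 917 ± 66.7 RPKM in the controls and 990 ± 38.8 RPKM in the treated cultures, with overlap between groups. Its make-up was different. Timp2 gave 55.3%, 45.3% and 62.1% of the sum in the controls and 73.1%, 75.6% and 75.0% in the treated cultures. Timp3 gave 25.4%, 26.8% and 24.4% and then 16.8%, 15.7% and 16.5%, and Timp1 gave 19.3%, 27.9% and 13.5% and then 10.1%, 8.72% and 8.52%. For each of these 3 inhibitors the shares of the groups did not overlap.

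In the ADAMTS family no gene passed both limits with edgeR or DESeq2. At an unadjusted p below 0.05, Adamts5 was higher and Adamts1 and Adamts2 were lower. Adamts2, which removes the amino-terminal propeptide of procollagen, had counts of 5316, 5179 and 6270 and then 4339, 4319 and 4512 (log2 fold change -0.35 ± 0.08 SE, edgeR FDR 0.0342). The groups were separate, and the FDR was between 0.104 and 0.149 without any of the treated cultures. Adamts1, a versican-cutting protease, was lower in each treated culture (-0.37 ± 0.11, edgeR FDR 0.0645). Without negative replicate 1 its FDR was 0.0417, and without negative replicate 2 its log2 fold change was -0.23 with an FDR of 0.0238. Adamts5, which also cuts versican, had counts of 4286, 5098 and 7384 and then 7397, 7373 and 7739. Negative replicate 3 lay among the treated cultures, and the log2 fold change of 0.43 ± 0.17 (SE) had an edgeR FDR of 0.147. Without negative replicate 3 it was 0.68 with an FDR of 0.00751.

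Levels of the genes were compared per length. With negative siRNA, Fn1 (1806 RPKM ± 114), Sparc (1796 ± 130) and Thbs1 (1015 ± 208) had the highest levels, followed by Bgn (817 ± 49.1), Fbln2 (551 ± 88.7) and Timp2 (499 ± 98.5). Fn1 and Sparc did not differ beyond their spread, nor did Thbs1 and Bgn, or Fbln2 and Timp2. Mmp9 and Timp4 were lowest, at 0.251 RPKM or less in every culture. With DNMT1 siRNA, Timp2 moved from rank 6 to rank 4 of the 42 genes, Fmod from 26 to 22 and Crispld2 from 28 to 36. The 8 down-regulated genes were of middle or low rank, from Timp1 at rank 14 to Tnxb at rank 39, and no gene of the 10 highest was called.

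**Figure D5:**
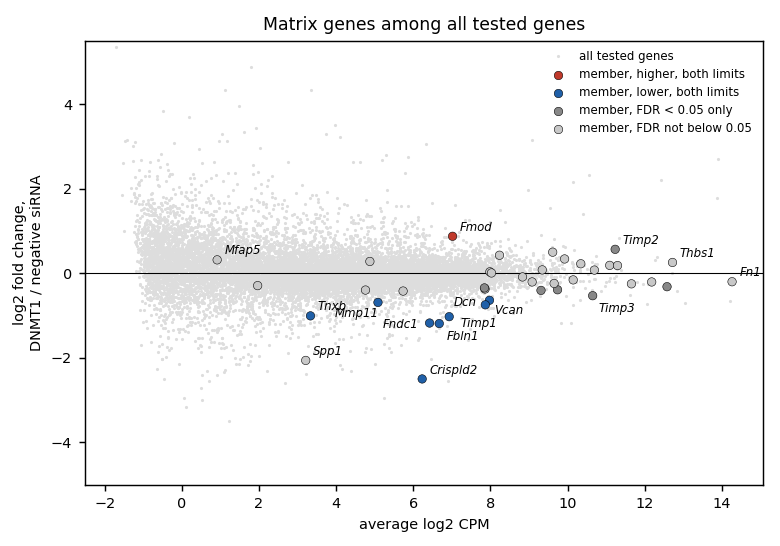
Average log2 CPM (counts scaled to library size, horizontal) against log2 fold change with DNMT1 siRNA (vertical) for all 15470 tested genes (grey dots) and the 40 matrix genes (coloured by call). The matrix genes called higher or lower lie at middle levels, and the gene with the most reads, Fn1, lies near 0 at -0.20.

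All 42 genes together took 6.28% to 6.54% of gene reads with negative siRNA and 5.78% to 5.95% with DNMT1 siRNA. Fn1 alone took 2.14% ± 0.139 and then 1.81% ± 0.0430, and without Fn1 the other 41 genes took 4.24% to 4.30% and then 3.98% to 4.11%. The summed share was thus lower in every treated culture with or without fibronectin.

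The spread between cultures was unequal. The median SD of log2 CPM (counts scaled to library size) over the 40 genes was 0.231 in the controls and 0.0770 in the treated cultures, beside 0.174 and 0.0982 over all tested genes. The treated libraries were the more shallow and still the more alike. Negative replicate 2 was above the mean of the other controls in 25 of the 40 genes.

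A wider list of 107 other non-collagen matrix genes gives the surroundings of the set. Of these, 89 were tested, 12 were up-regulated and 7 down-regulated (21.3%, against 6.49% of all tested genes), and the median log2 fold change was -0.043. The shares called higher and lower were 13.5% and 7.87%, beside 4.26% and 2.23% of all tested genes. A difference between this list and the 42 genes was not tested. Among the glycoproteins, Thbs4, a thrombospondin, rose from 214 ± 110 to 1500 ± 272 normalized counts (log2 fold change 2.81 ± 0.32 SE, edgeR FDR 0.00199), in contrast to Thbs1 and Thbs2. Frem2, a basement membrane protein, rose by 1.46 ± 0.11 on the log2 scale (FDR 0.000626), and Tgfbi fell by 0.71 ± 0.17 (FDR 0.0331).

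Of the other small proteoglycans, Prelp rose by 1.30 ± 0.33 on the log2 scale (edgeR FDR 0.0394) and Aspn, asporin, fell by 1.83 ± 0.40 (FDR 0.0238), or by 1.16 without negative replicate 2. Acan, aggrecan, a relative of versican, fell by 0.70 ± 0.18 (FDR 0.0371). Emilin2 rose by 1.30 ± 0.35 (FDR 0.0447), whereas Emilin1 was not called. Among the proteases, Mmp15 rose by 0.82 ± 0.22 (FDR 0.0451), while Mmp17, Mmp19 and Adamts6 fell by 0.98 ± 0.24, 0.91 ± 0.15 and 0.97 ± 0.22 (FDRs from 0.00870 to 0.0347). Reck, a membrane-anchored MMP inhibitor, rose by 0.87 ± 0.14 (FDR 0.00707) and the serine protease Htra1 by 0.63 ± 0.16 (FDR 0.0428). Ctsk, cathepsin K, rose by 0.59 ± 0.16 (FDR 0.0451), and Plaur, the urokinase receptor, fell by 0.78 ± 0.13 (FDR 0.0100). Thbs4, Frem2 and Reck were called whichever culture was left out. Mmp19 lost its call without DNMT1 replicate 2, and each of the other genes named here lost it without any 1 of the 3 treated cultures. Some calls were also lost without a control. Tgfbi was under the fold limit without negative replicate 2 (-0.46), and Prelp lost its call without negative replicate 1. Acan and Mmp17 lost it without negative replicate 3, and Mmp15, Htra1 and Ctsk without negative replicate 1 or 3. With a replicate block the edgeR FDRs of Emilin2, Mmp15, Mmp17, Htra1 and Ctsk lay between 0.0524 and 0.0721.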

How the data were processed

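The authors cleaned reads after FastQC, mapped them to mm10 with TopHat2 and counted them on Ensembl GRCm38 genes (release 79) with HTSeq, per the paper's methods and the labels. The deposited files hold raw counts, 1 file per culture, with no normalization. Versions and the strand setting of counting are not given in the sources used here. Reads on no feature, ambiguous or aligned more than once are listed in 5 summary rows and were kept out of library sizes and tests. Reads on no feature and ambiguous reads are given as shares in the report.

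The 42 genes and all gene lists were chosen with earlier results of these data known. Counts were tested in R 4.3.3 with edgeR 4.0.16 (filterByExpr with minimum count 10 and minimum total 15, TMM, quasi-likelihood F test without a block), and the Benjamini-Hochberg adjustment covered 15470 genes. SE was the absolute log2 fold change over the square root of F. The SD of log2 CPM used a prior count of 2. RPKM used union exon lengths of GENCODE vM21 (GRCm38) and effective library sizes; this annotation also gave positions, and held 42548 of the 43629 genes. Summaries were made in Python 3.11.15 with pandas 2.3.3 and numpy 2.4.6, and plots with matplotlib 3.10.9. The procedure was tested on simulated data.

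All 42 genes are named. Values per culture are given for those with FDR below 0.05, and for others whose groups were separate, widely spread or at high level. Of the 107 other matrix genes, those named are up to 3 per list and direction that passed both limits with average log2 CPM above 1. Marker lists hold 8 to 10 genes each.

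No 2 libraries of a group were copies. The chi-square per degree of freedom was 28.9 to 59.7 between negative siRNA replicates and 2.89 to 10.7 between DNMT1 siRNA replicates. Libraries of different groups were not compared in this way. Deviations from the group mean had correlations of -0.0208 to 0.0274 between same-numbered cultures and -0.0765 to 0.0650 between the others. No pairing was seen, but the treated cultures differed little, so the check could have missed one. Alternatives were RLE and upper quartile normalization, DESeq2 1.42.0 with unshrunken fold changes, edgeR's exact test, no filter, at least 10 counts in every culture, a replicate block, no fold limit, and leaving out each culture. RefSeq promoter windows (GRCm38.p6) were matched by symbol, and in 23 of 32 windows the first 30 bases after the start lay in a GENCODE transcript of the same gene. Protein sequences were not used here.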

Additional observations from a re-analysis of the deposited data

Results flagged for a closer look

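Reads that HTSeq assigned to no gene were not used in the comparisons above. Their share of the reads on genes and on no gene was 14.2 percentage points higher in the DNMT1 siRNA libraries than in the negative siRNA libraries (17.0% ± 1.64 and 31.2% ± 4.55, SD, n = 3, exact permutation test, two-sided, p = 0.1, the smallest p possible). The share of reads that were ambiguous between genes was 2.54 percentage points higher (3.62% ± 0.0343 and 6.15% ± 0.175, exact permutation test, p = 0.1). Both shares were higher in 3 of 3 treated cultures than in any control. Reads of overlapping genes go into the ambiguous class, and matrix genes with an overlapping gene, such as Timp3, Ccn2, Fbn1, Loxl3 and Mmp11, can lose reads to it. The part of either share in the values of the matrix genes was not tested.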

How the results depend on the processing

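All 9 calls among the 42 genes were kept under RLE and upper quartile normalization, DESeq2, edgeR's exact test, no filter, at least 10 counts in every culture and the replicate block, and Crispld2, Fbln1, Vcan and Fmod also when any culture was left out. Over all tested genes, 659 were higher and 345 lower; without a filter 994 and 701, without the fold limit 1054 and 874, and without each culture 255 to 823 and 112 to 472. Calls among the 42 genes were 1 higher and 8 lower; upper quartile normalization gave 2 higher (Timp2 added), the absence of a fold limit 2 and 13, and leaving out each culture 1 to 3 and 3 to 9, the fewest lower without DNMT1 replicate 2. Spp1 was called with DESeq2, the exact test and no filter. Of the other matrix genes, 12 were higher and 7 lower; 12 were lower without a filter and 11 with DESeq2, and leaving out each culture gave 4 to 14 higher and 0 to 13 lower. The 0 came from edgeR without DNMT1 replicate 2, where 13 were lower at an unadjusted p below 0.05. Whether same-numbered cultures were paired is not known. The replicate block gave 513 higher and 285 lower genes in all, 1 and 8 of the 42, and 8 and 7 of the other matrix genes.

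Signs changed only for genes near 0 on the log2 scale. Without each culture in turn, Tnc ranged from -0.059 to 0.22, Eln from -0.045 to 0.55, Fbn2 from -0.086 to 0.15, Emilin1 from -0.15 to 0.025 and Thbs2 from -0.072 to 0.17, and Thbs2 was -0.025 without a filter. The absence of a filter moved the median of all genes to 0.11. The cause of these changes was not tested. Of 520 refitted values of single genes, 488 kept direction and call, 10 became called, 12 lost the call and 10 changed sign. The difference in reads on no feature was 25.2 percentage points relative to reads on genes alone, and 12.7 to 16.8 when each culture was left out. With 3 cultures per group the smallest exact p is 0.1, and counts of Mfap5, Mmp3, Spp1 and Tnxb are low, so their fold changes are imprecise.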
